A study of Mus musculus with 4 samples.

Results

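The genes described here are the core of the cell cycle engine: 39 cyclins, cyclin-dependent kinases (CDKs), CDK inhibitors, E2F transcription factors, pocket proteins, and the phosphatases and kinases that switch CDKs on and off. They were taken by gene symbol from the 50600 annotated genes of each library, and all 39 were found. RNA was sequenced from primary regulatory T cells of C57BL/6NJ mice in 4 libraries, biological replicates 1 to 4 of a single group, so no condition was compared. Such cells hold immune responses in check and depend on the transcription factor Foxp3. Inside the deposited files the samples are named as activated, sorted and 72 h. A protocol for differentiating CD4+ T cells is linked to the samples. The 4 libraries share a single donor record, with age unknown, and whether each had its own animal or culture is not stated. The p-values below rest on these 4 libraries alone, and part of the spread between them may be technical.

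A resting T cell enters the cycle when D-type cyclins bind Cdk4 or Cdk6 and phosphorylate the pocket protein Rb1, which releases activator E2Fs to transcribe genes for DNA synthesis, E-type cyclins among them. Cyclin E and cyclin A with Cdk2 drive S phase, and cyclin A and B with Cdk1 drive mitosis. INK4 proteins block Cdk4 and Cdk6, and CIP/KIP proteins such as p27 (Cdkn1b) bind cyclin-CDK complexes more widely. Wee1 and Pkmyt1 hold CDKs inactive by phosphorylation and the Cdc25 phosphatases undo this. Naive T cells rest outside the cycle, and stimulation through the antigen receptor and interleukin-2 brings them in.

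The libraries held between 32648138 (replicate 4) and 94983494 (replicate 3) counts of read pairs. Levels are given as TPM, a library-scaled abundance per exon length, computed from the deposited counts and exon lengths. All 6 regulatory T cell markers checked were at 1 TPM or more in every library, Foxp3 at 463 ± 25.4 TPM (SD, n = 4), as were all 5 T cell markers. Of 27 markers of CD8 T, NK, B, myeloid, dendritic, erythroid, platelet, stromal and endothelial cells, 2 reached that level, Adgre1 (1.75 ± 0.721 TPM) and Epcam (2.85 ± 1.4 TPM). The summed level of each of these 6 lists stayed between 0 and 4.54 TPM in any library. The libraries differed in other ways: replicates 1 and 2 had 312 and 331 TPM of Xist, against 0.539 and 2.38 TPM for replicates 3 and 4, although all share a donor record. The Y-linked gene Eif2s3y read 0.0830, 0.132, 49.3 and 67.7 TPM from replicate 1 to replicate 4. These are the levels of XX cells in replicates 1 and 2 and of XY cells in replicates 3 and 4, so the 4 libraries were not repeats of RNA from a single animal. The labels give no sex, and no comparison was made by it. Gm42418, a locus that carries ribosomal RNA sequence, was highest in replicate 1, at 11891 TPM against 1555 to 4335 TPM. The part of these differences in the results below was not tested. The counts of calls over all genes and over the members are also given without each library. The counts for further genes of the pathway are given with all 4 libraries only.

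Promoters of cell cycle genes are shown first because a few short elements are known to control many cell cycle genes. E2F factors bind TTTCGCGC and its variants TTTCCCGC, TTTGGCGC and TTTGCCGC. The cell cycle homology region (CHR), TTTGAA or TTCGAA, is the site of the DREAM and MuvB complexes, which hold G2/M genes down in resting cells and raise them before mitosis. The CCAAT box is bound by NF-Y. RefSeq promoter windows of 300 bases in GRCm38.p6, 250 before the start site and 50 from it, were at hand for 28 of the 39 members (34 windows) and were searched on both strands. Also searched were the shorter E2F core TTNNCGC, which the motifs of 8 bases contain, and a further CHR form, TTTAAA. Windows of Ccna2, Ccnd1, Ccnd2, Ccne2, Cdc25c, Cdkn1c, E2f4, E2f5, Pkmyt1, Rb1 and Wee1 were not used here. The stretches below lie upstream of the start in both RefSeq and the deposited annotation, and run 5′ to 3′ on the gene's strand. Capitals mark matches to the E2F motifs of 8 bases, to the CHR forms TTTGAA and TTCGAA and to the CCAAT box, which read ATTGG where the CCAAT box is on the other strand.
Cdk1, positions -140 to -27 from the start, chr10:69352939-69353052 (minus strand): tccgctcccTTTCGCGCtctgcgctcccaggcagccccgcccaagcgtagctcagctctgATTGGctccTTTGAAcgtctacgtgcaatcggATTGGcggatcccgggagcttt
Ccnb2, positions -100 to -1, chr9:70421555-70421654 (minus strand): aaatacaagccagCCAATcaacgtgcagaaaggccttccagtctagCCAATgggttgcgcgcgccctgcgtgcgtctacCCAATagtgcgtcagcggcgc
Ccnf, positions -150 to -1, chr17:24251410-24251559 (minus strand): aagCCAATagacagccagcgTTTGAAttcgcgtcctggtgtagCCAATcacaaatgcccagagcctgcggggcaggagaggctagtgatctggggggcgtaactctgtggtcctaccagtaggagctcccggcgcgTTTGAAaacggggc
Cdc25a, positions -140 to -1, chr9:109875439-109875578 (plus strand): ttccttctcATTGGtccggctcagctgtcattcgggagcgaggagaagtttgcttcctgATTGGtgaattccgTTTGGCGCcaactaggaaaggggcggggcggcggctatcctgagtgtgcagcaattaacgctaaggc
Rbl1, positions -60 to -1, chr2:157204535-157204594 (minus strand): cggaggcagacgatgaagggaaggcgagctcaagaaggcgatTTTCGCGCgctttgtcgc

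Within the printed stretches Cdk1 has an E2F match from -131, CCAAT boxes from -80 and -48 and a CHR match from -71, whereas Rbl1 has an E2F match alone, from -18. A further CHR match of Cdk1, from -15, and a further CCAAT box, from -208, lie outside its printed stretch. The 3 CCAAT boxes of Ccnb2 begin at -87, -54 and -21, and its CHR matches, from -167 and from 5, lie outside the printed stretch. Of the 34 member windows, 8 held one of the 4 E2F motifs of 8 bases (23.5%, against 2.26% of all 32851 RefSeq windows), those of Cdc25a, Cdk1, Cdk2, Cdkn2a, E2f2, E2f3, E2f7 and Rbl1. TTTGAA or TTCGAA was in 11 windows (32.4%, against 19.2% of all windows) and at least 1 CCAAT box in 19 (55.9%, against 37.4%). Among the members usually placed at G2/M, all 6 with a window (Ccnb1, Ccnb2, Ccnf, Cdc25b, Cdk1 and Cdkn3) held a CCAAT box, and 5 of these held 2 or more, against 11.7% of all windows. TTTGAA or TTCGAA was in 5 of the 6, and the other, Ccnb1, held the form TTTAAA from -42. TTTAAA was in 6 member windows (17.6%, against 13.2% of all windows) and the E2F core in 17 (50%, against 20.2%). A pair of CCAAT boxes on the same strand, 31 to 33 bases apart, was in the windows of Ccnb1, Ccnb2, Cdk1 and E2f7 and in 0.794% of all windows. That spacing was chosen after the matches were seen. These matches are letters in a window and no measure of binding.

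**Figure D1:**
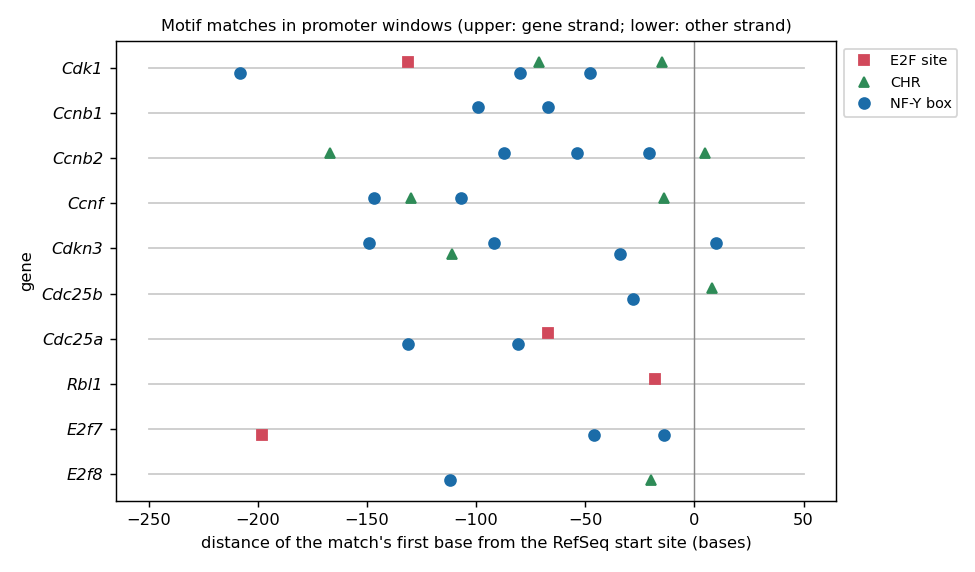
Matches to E2F sites (squares), the CHR forms TTTGAA and TTCGAA (triangles) and the CCAAT box bound by NF-Y (circles) in the RefSeq promoter windows of 10 members. The horizontal axis is the distance in bases from the start site; matches on the gene's strand sit above the line and those on the other strand below. Cdk1, Ccnb1, Ccnb2 and E2f7 each show CCAAT boxes on one strand 31 to 33 bases apart.

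Most of the engine was expressed: 36 of the 39 members reached 1 TPM in each of the 4 libraries, against 23.9% of all 50600 annotated genes and 49.1% of the 21764 protein-coding genes. The 3 others were the inhibitors Cdkn1c, Cdkn2a and Cdkn2b. The members' median was 42.9 TPM, against 30.9 TPM over the 10680 protein-coding genes at that level. At 100 TPM or more in the mean were 10 members, against 3.9% of all genes and 8.84% of protein-coding genes. With principal transcript lengths, described below, 9 members were at that level, against 3.91% of all genes. The summed level of the 39 members ranged from 3039 TPM in replicate 1 to 3144 TPM in replicate 2. With the deposited exon lengths Cdk4 was the highest at 348 ± 14.1 TPM (SD, n = 4), followed by E2f4 and Ccnd2, whose libraries overlapped. Principal transcript lengths put Ccnd3 first at 478 ± 16 TPM, then Cdk4 at 382 ± 14.3 TPM, Ccnd2 at 289 ± 10.2 TPM and E2f4 at 244 ± 14 TPM. In the order of means with the deposited lengths, the libraries of 26 of the 38 neighbouring pairs overlapped, so the middle of the order, from E2f1 (58.3 ± 3.12 TPM) down to Cdk6 (26.5 ± 1.96 TPM), is a run in which the libraries of every neighbouring pair overlapped.

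**Figure D2:**
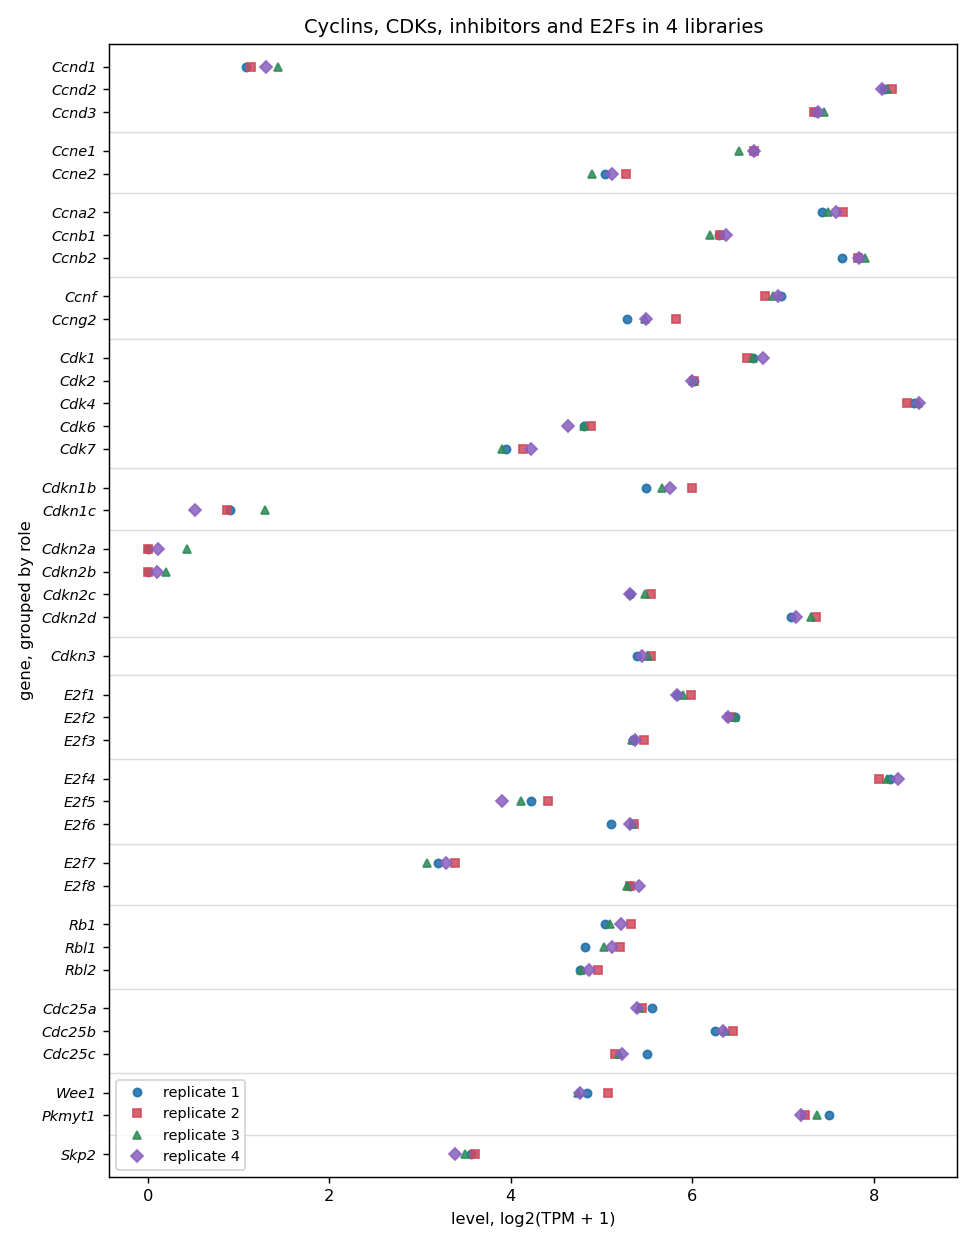
Level of each of the 39 genes in the 4 libraries, as log2(TPM + 1), grouped by role from D-type cyclins at the top to Skp2 at the bottom; each symbol is a library. For most genes the 4 symbols lie close together. Ccnd1, Cdkn1c, Cdkn2a and Cdkn2b are the lowest, and the others span means from 8.45 TPM (E2f7) to 348 TPM (Cdk4).

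Differences between family members were taken within each library on the log2(TPM + 1) scale for 21 pairs. In 20 pairs the difference had the same sign in 4 of 4 libraries, each with an exact two-sided sign-flip permutation p of 0.13 and 0.131 after Benjamini-Hochberg adjustment over the 21 pairs. That p is the smallest that 4 libraries allow, and any 4 differences of the same sign give it, whatever their spread. The exception was Cdkn2a against Cdkn2b. A level per gene also depends on the length used. The deposited length merges the exons of every annotated transcript, and for 5 members (Ccnd3, Cdk2, Cdk7, Cdc25a and Skp2) it was more than 2-fold that of the principal transcript in GENCODE M21. TPM with the principal transcript's length, an alternative chosen after seeing these lengths, moved 7 expressed members by more than 1.5-fold (Ccnd3, Cdk7, Cdk2, Skp2 and Cdc25a up, Ccnf and Cdkn3 down). It rescales every gene, so a member with an unchanged length such as Wee1 went from 28.0 to 19.4 TPM. Only the length was exchanged. The counts stayed those over all deposited exons and were not restricted to, or extended over, the principal transcript. Such a level can therefore be too high where the deposited exons are longer and too low where they are shorter. Levels without a second value are those with the deposited lengths.

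Of the D-type cyclins, which couple growth signals to Cdk4 and Cdk6, Ccnd2 and Ccnd3 were abundant and Ccnd1 was close to absent. Ccnd2 measured 277, 293, 282 and 271 TPM in replicates 1 to 4 and Ccnd3 162, 161, 174 and 167 TPM. Ccnd1 (chromosome 7, 144929931 to 144939925 in mm10) measured 1.11, 1.19, 1.70 and 1.46 TPM, from 69 to 236 counts. It was thus far below both relatives in every library, with Ccnd2 higher by 6.90 ± 0.18 and Ccnd3 by 6.15 ± 0.11 (log2, SD, n = 4). Ccnd3 was higher than Ccnd1 by 7.78 ± 0.11 with principal transcript lengths. Ccnd1 made up 0.305 ± 0.0564% of the summed D-type cyclin TPM, or 0.155 ± 0.0269% with principal transcript lengths.

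Which of the abundant D-type cyclins led depended on the transcript length. With the deposited lengths Ccnd2 exceeded Ccnd3 by 0.75 ± 0.08 (log2, SD, n = 4) and held 62.6 ± 1.31% of the D-type cyclin TPM. Ccnd3 has 8775 bases of merged exon but a principal transcript of 2113 bases. With principal transcript lengths Ccnd3 stood at 478 ± 16 TPM and Ccnd2 at 289 ± 10.2 TPM, and the difference turned to -0.72 ± 0.08, below 0 in 4 of 4 libraries. The order of Ccnd2 and Ccnd3 is therefore not settled by these files, while both stand far above Ccnd1 with either length.

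The E-type cyclins, partners of Cdk2 at the entry to S phase, were both present. Ccne1 measured 102, 102, 90.3 and 101 TPM in replicates 1 to 4, low only in replicate 3, and Ccne2 31.9, 37.5, 28.7 and 33.6 TPM. The libraries of these genes did not overlap, and Ccne1 was higher by 1.56 ± 0.10 (log2, SD, n = 4). Ccne1 held 75.0 ± 1.39% of their summed TPM.

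Cyclins of S phase and mitosis were among the highest members. Ccna2, which serves Cdk2 in S phase and Cdk1 later, measured 171, 202, 179 and 191 TPM in replicates 1 to 4. Ccnb2, a mitotic cyclin whose promoter is printed above, measured 200, 226, 239 and 227 TPM, lowest in replicate 1. Ccnb1, the other B-type cyclin and the one needed for mitotic entry, measured 77.4, 78.1, 72.3 and 81.7 TPM. Ccnb1 minus Ccnb2 was -1.51 ± 0.15 (log2, SD, n = 4). With principal transcript lengths the difference was -0.76 ± 0.15, in the same direction in 4 of 4 libraries. In CPM, library-scaled counts without length, it was only -0.06 ± 0.15, and in replicate 1 Ccnb1 held 51.6% of the summed CPM. The size of the difference therefore rests on the lengths used. Pseudogenes named after Ccnb1 and Ccnb2 exist in the annotation and stood at 1.5 TPM at most. Reads that mapped to several places were not counted, so the levels of Ccnb1, Ccnb2 and Ccnd3, which also has such a pseudogene, are uncertain to that extent.

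The remaining cyclins are not known as partners that drive CDKs through the cycle. Ccnf, an F-box protein that targets substrates for degradation in G2, stood at 119 ± 6.12 TPM (SD, n = 4), between 111 TPM in replicate 2 and 125 TPM in replicate 1. Its deposited exons span 3099 bases and its principal transcript in the later annotation 4133, with which it stood at 61.8 ± 3.23 TPM. Reads on bases outside the deposited exons were not counted, so that value can be too low. Ccng2, a cyclin linked to cell cycle arrest and a target of FOXO factors, measured 37.9, 55.4, 43.8 and 44.0 TPM in replicates 1 to 4. It was lowest in replicate 1 and highest in replicate 2.

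Among the kinases, Cdk4 was the most abundant and exceeded its relative Cdk6 in every library. Cdk4 measured 348, 329, 357 and 360 TPM and Cdk6 26.9, 28.5, 26.9 and 23.8 TPM in replicates 1 to 4. The difference was 3.67 ± 0.16 (log2, SD, n = 4), and Cdk4 held 92.9 ± 0.727% of their summed TPM. Both bind D-type cyclins and are the targets of INK4 inhibitors.

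Cdk1, the mitotic kinase, measured 101, 95.9, 101 and 108 TPM in replicates 1 to 4. Cdk2, the kinase of S phase, measured 64.0, 63.9, 63.5 and 62.8 TPM and had the lowest coefficient of variation of the expressed members, 0.912%. With the deposited lengths Cdk1 exceeded Cdk2 by 0.67 ± 0.08 (log2, SD, n = 4). With principal transcript lengths the difference turned to -0.62 ± 0.08, below 0 in 4 of 4 libraries; the merged exons of Cdk2 span 6219 bases and its principal transcript 2240. Cdk7, the kinase that activates other CDKs, stood at 15.7 ± 1.74 TPM with the deposited length and at 41.5 ± 4.52 TPM with that of the principal transcript.

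The inhibitors among the members divided into abundant and nearly absent genes. Cdkn1a (p21), which is not a member, stood above all of them at 517 ± 12.8 TPM (SD, n = 4). Of the INK4 family, Cdkn2d (p19INK4d) measured 135, 164, 158 and 140 TPM in replicates 1 to 4 and Cdkn2c (p18INK4c) 38.8, 45.6, 43.5 and 38.8 TPM. Both genes were lower in replicates 1 and 4 than in replicates 2 and 3, and their difference of -1.81 ± 0.03 (log2, Cdkn2c minus Cdkn2d, SD, n = 4) had the smallest SD of the 21 pairs. Cdkn2d held 78.1 ± 0.263% of the INK4 TPM.

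The neighbouring genes Cdkn2a (chromosome 4, 89274471 to 89294653 in mm10) and Cdkn2b (chromosome 4, 89306289 to 89311032) were at or near 0. Cdkn2a, which encodes both p16INK4a and the p53 activator p19ARF, had 0, 0, 12 and 1 counts in replicates 1 to 4. Cdkn2b, which encodes p15INK4b, had 0, 0, 6 and 1 counts. A count of 0 allows up to 0.177 TPM of Cdkn2a in replicate 1 and 0.117 TPM in replicate 2 (3 counts, counting error only). Gene counts do not separate the 2 products of Cdkn2a. Cdkn2a had more counts than Cdkn2b in replicate 3 alone, and with 1 count each in replicate 4 their TPM there differ only through gene length (exact sign-flip permutation p = 0.5 before and after adjustment).

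Of the CIP/KIP members listed, Cdkn1b (p27, which restrains Cdk2 in resting T cells) measured 43.9, 62.9, 49.9 and 53.0 TPM in replicates 1 to 4, lowest in replicate 1 and highest in replicate 2. Cdkn1c (p57) measured 0.881, 0.830, 1.45 and 0.439 TPM, from 9 to 87 counts. Cdkn1b exceeded Cdkn1c by 4.83 ± 0.41 (log2(TPM + 1), SD, n = 4), the widest SD of the 21 pairs. The added 1 shrinks this difference because Cdkn1c is so low, and with a pseudocount of 0.1 it was 5.80 ± 0.70. Cdkn3, a phosphatase that removes the activating phosphate from CDKs, stood at 43.5 ± 2.08 TPM (SD, n = 4), or 25.4 ± 1.18 TPM with the length of its principal transcript. As a ratio of summed TPM, the INK4 genes stood at 0.511 ± 0.0576 of Cdk4 plus Cdk6, at 0.465, 0.586, 0.525 and 0.466 in replicates 1 to 4. With principal transcript lengths the ratio was 0.362 ± 0.0413.

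All 8 E2F genes were expressed, and E2f4 alone held 49.8 ± 2.15% of their summed TPM. E2f4, the main E2F of resting cells and a subunit of DREAM, measured 289, 265, 282 and 306 TPM in replicates 1 to 4. The other E2Fs of the repressor class were far lower, with E2f6, which works without pocket proteins, at 38.0 ± 3.05 TPM and E2f5 at 17.0 ± 2.65 TPM (SD, n = 4). E2f4 exceeded E2f5 by 4.00 ± 0.30 and E2f6 by 2.88 ± 0.17 (log2, SD, n = 4).

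The activator E2Fs, which drive S-phase transcription once released from Rb1, together held 185 ± 4.61 TPM (SD, n = 4). E2f2 measured 87.9, 84.6, 87.7 and 83.0 TPM, E2f1 55.9, 62.5, 58.8 and 55.9 TPM and E2f3 39.7, 43.2, 39.2 and 40.2 TPM in replicates 1 to 4. The 3 genes did not overlap in any library. E2f1 minus E2f2 was -0.55 ± 0.09 and E2f1 minus E2f3 was 0.51 ± 0.05 (log2, SD, n = 4). With principal transcript lengths the differences were -0.39 ± 0.09 and 0.65 ± 0.05, so E2f2 led and E2f3 was last with either length.

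The atypical E2Fs E2f7 and E2f8, which repress E2F targets late in S phase without a DP partner, were unequal. E2f8 stood at 39.3 ± 1.53 TPM and E2f7 at 8.45 ± 0.835 TPM (SD, n = 4), a difference of -2.10 ± 0.11 for E2f7 minus E2f8 (log2). Both were expressed in every library, at 37.9 TPM or more and at 7.47 TPM or more.

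The pocket proteins, which bind E2Fs and silence their targets, lay close together. Rb1 measured 31.8, 39.1, 33.2 and 36.2 TPM, Rbl1 (p107) 27.2, 35.8, 31.7 and 33.5 TPM and Rbl2 (p130) 26.2, 30.1, 26.3 and 28.1 TPM in replicates 1 to 4. In TPM all 3 were lowest in replicate 1 and highest in replicate 2, the libraries that held the lowest value of 36.8% and the highest value of 39.9% of all expressed genes, and their ranges overlapped. After TMM scaling Rbl2 was lowest in replicate 3, at -0.05 from its mean against -0.04 in replicate 1 (log2 CPM). Within libraries Rbl1 was lower than Rb1 by a small margin, -0.13 ± 0.07 (log2, SD, n = 4). Rbl1 was higher than Rbl2 by 0.20 ± 0.10 with the deposited lengths and lower, at -0.10 ± 0.10, with principal transcript lengths, so their order is not settled. Genes on the opposite strand overlap 14.9% of the exon bases of Rb1 and 21% of those of Rbl2. Such overlap is 30.7% for Cdkn1c, 23.4% for Ccnd1 and 19.7% for Cdk4. The strand setting of the counting is meant to keep these reads apart. How fully it did was not tested, which matters most for the low counts of Cdkn1c and Ccnd1. The summed E2F level was 6.09 ± 0.554 times the summed pocket protein level, or 5.35 ± 0.483 times with principal transcript lengths.

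Of the Cdc25 phosphatases, which remove inhibitory phosphates from CDKs, Cdc25b measured 75.3, 86.4, 81.0 and 79.6 TPM in replicates 1 to 4, Cdc25a 46.2, 42.7, 41.6 and 41.1 TPM and Cdc25c 44.4, 34.5, 35.6 and 36.3 TPM. Cdc25a and Cdc25c were highest in replicate 1, where Cdc25b was lowest. Cdc25a minus Cdc25b was -0.89 ± 0.14 with the deposited lengths but -0.04 ± 0.14, above 0 in 1 of 4 libraries, with principal transcript lengths (log2, SD, n = 4). Cdc25b exceeded Cdc25c by 1.08 ± 0.24, with the smallest difference, 0.75, in replicate 1.

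The opposing kinases were unequal. Pkmyt1, the membrane-bound kinase that inhibits Cdk1, measured 181, 150, 165 and 146 TPM in replicates 1 to 4 and Wee1, its nuclear relative, 27.6, 32.6, 25.6 and 26.1 TPM. Pkmyt1 exceeded Wee1 by 2.48 ± 0.23 (log2, SD, n = 4). Skp2, the F-box protein that marks p27 for destruction, was low for this set at 10.4 ± 0.749 TPM, or 18.2 ± 1.4 TPM with the principal transcript's length.

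**Figure D3:**
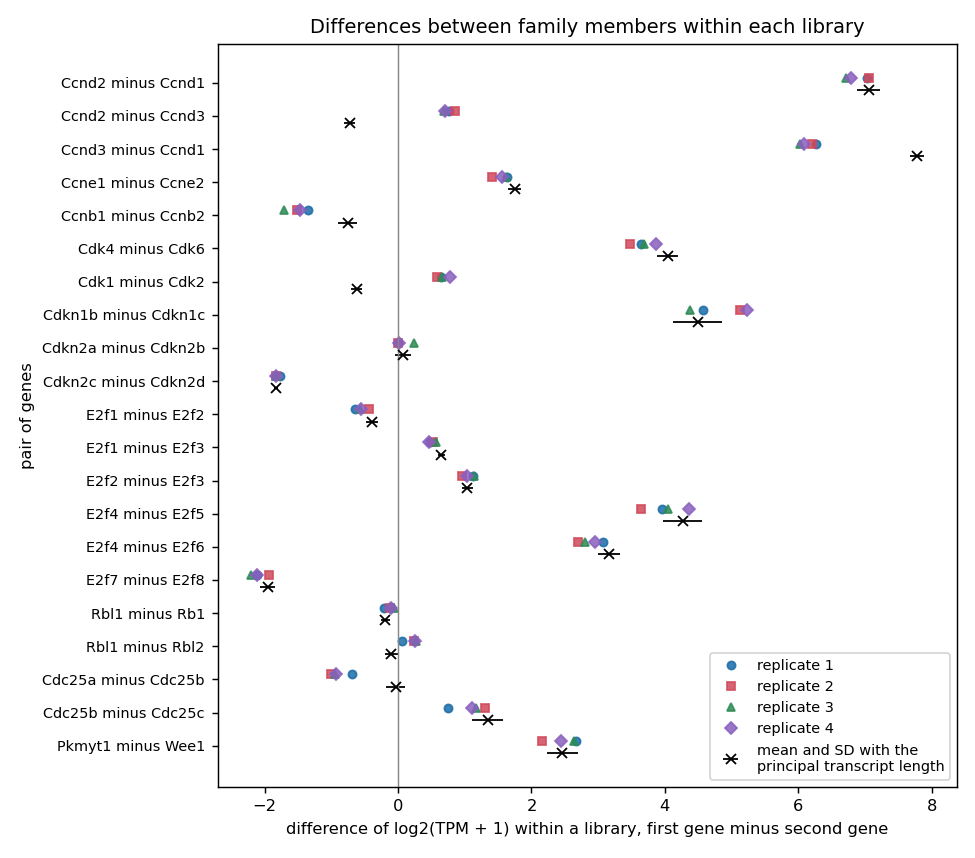
Difference between the genes of each of the 21 pairs within a library, on the log2(TPM + 1) scale, first gene minus second gene; coloured symbols are the 4 libraries with the deposited lengths, and crosses with bars are the mean and SD over 4 libraries with principal transcript lengths. Ccnd2 minus Ccnd3, Cdk1 minus Cdk2 and Rbl1 minus Rbl2 lie on opposite sides of 0 for these lengths.

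The libraries were then compared with each other. Of the 39 members, 37 passed the filter on low counts; Cdkn2a and Cdkn2b did not. By edgeR's goodness-of-fit test, which asks whether a gene varies between libraries more than genes of like abundance, 0 of these 37 were called at an adjusted p under 0.05, against 51 of 13478 genes tested (0.378%). An unadjusted p under 0.05 was given to 3 members, Ccng2, Pkmyt1 and Cdkn1b, against 5.97% of all genes. Their edgeR adjusted p-values were 0.731, 0.830 and 0.831. A goodness of fit with DESeq2's trend called 0 members and left the same number, 3, at an unadjusted p under 0.05. The 51 genes called became 17 without replicate 1, 56 without replicate 2, 23 without replicate 3 and 33 without replicate 4, while the members called stayed at 0 in each. By the same edgeR test, 0, 1, 3 and 2 members had an unadjusted p under 0.05 without replicates 1 to 4. All genes gave 4.74%, 5.47%, 5.53% and 5.49% there.

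The spread between libraries was narrow for most members. The median range over the 4 libraries was 0.22 for the 37 members and 0.31 for all genes tested (log2 CPM, TMM-scaled), and 34 of the 37 had a range under 0.5, against 70.1% of all genes. These comparisons were not matched for abundance, and ranges widen at low counts. They therefore do not show the members to be steadier than genes of like abundance. The members with wider ranges were Cdkn1c (1.63), Ccnd1 (0.58) and E2f5 (0.50), which had the lowest counts of those tested. Ccng2 and Cdkn1b shared their pattern: they deviated by -0.21 and -0.21 in replicate 1 and by 0.26 and 0.23 in replicate 2. Rbl1 lay at -0.20 and 0.12 in these libraries. In the opposite sense, Pkmyt1 and Cdc25c lay at 0.21 and 0.28 in replicate 1 and at -0.14 and -0.17 in replicate 2. None of these 5 genes was called.

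Which library was highest depended on the scaling. In TPM, replicates 1 to 4 were highest for 7, 20, 3 and 6 of the 36 expressed members, where all expressed genes gave 22.8%, 39.9%, 16.2% and 21.1%. They were lowest for 13, 6, 8 and 9 members, where all expressed genes gave 36.8%, 20.2%, 23.9% and 19.2%. The highest TMM-scaled CPM fell in replicate 1 for 9 members, in replicate 2 for 14, in replicate 3 for 9 and in replicate 4 for 5 of 37, where all genes gave 30.3%, 28.2%, 21% and 20.6%. The lowest fell in replicate 1 for 11 members, in replicate 2 for 10, in replicate 3 for 7 and in replicate 4 for 9, where all genes gave 30.1%, 28.9%, 19.9% and 21.1%. The members' median deviation was 0.00443, 0.0372, 0.00429 and -0.000897 in replicates 1 to 4 (log2). The 10 members that peak at G1/S had medians between -0.01 and 0.05 and the 8 that peak at G2/M between -0.03 and 0.03.

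**Figure D4:**
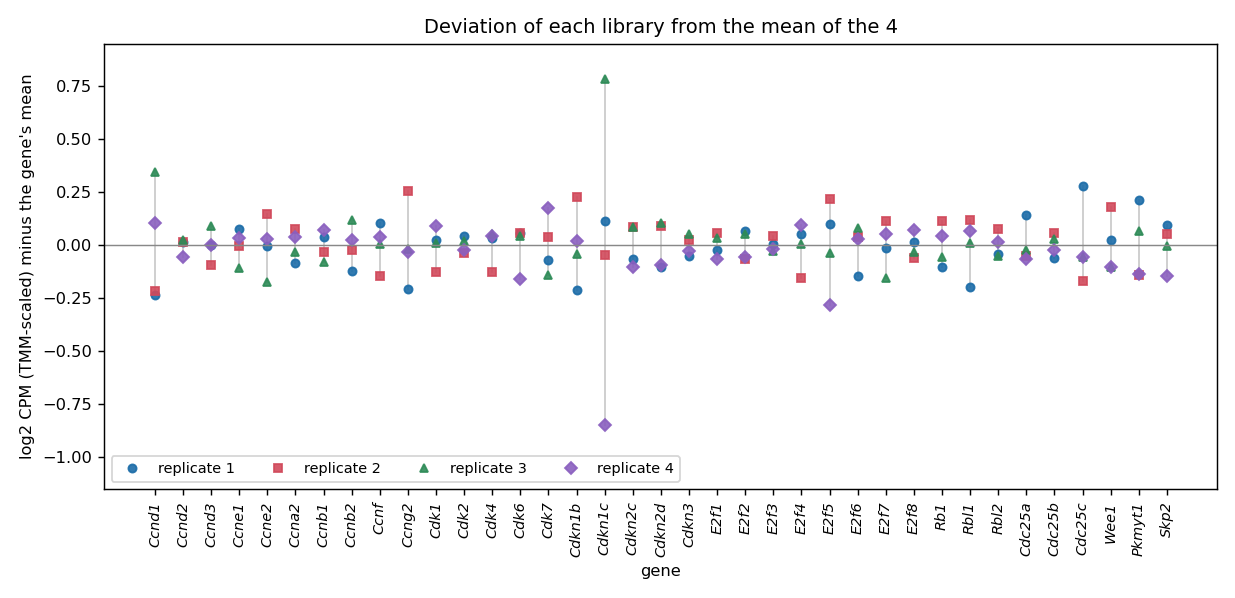
Deviation of each library from the mean of the 4 for the 37 members tested, in log2 CPM after TMM scaling; symbols are libraries and grey lines span their range. Cdkn1c has the widest range, 1.63, and Ccng2 and Cdkn1b show replicate 1 lowest and replicate 2 highest.

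Other genes of the pathway, from 6 lists, reached 1 TPM in each library in 54 of 56 cases, against 49.1% of protein-coding genes. The goodness of fit in edgeR was run on these 54 and called 0 at an adjusted p under 0.05. Over all genes tested 0.378% were called, so 0 calls do not set a list of this size apart. Unadjusted, 2 of the 54 had a p under 0.05 in that test, against 5.97% over all genes tested. All 5 genes of the CDK-activating kinase and the Cks and Cdc37 partners of CDKs were expressed, led by Cks1b at 232 ± 15.3 TPM (SD, n = 4), the cofactor with which Skp2 recognises p27. All 9 genes of the DP, DREAM and MuvB list were expressed, led by Tfdp1, the DP partner of E2Fs, at 227 ± 13 TPM. All 8 ubiquitin ligase genes were expressed, led by Cdc20, the mitotic activator of the anaphase-promoting complex, at 388 ± 42.6 TPM. Of 14 other cyclins, CDKs and inhibitors 12 were expressed, led by Cdkn1a (p21) at 517 ± 12.8 TPM. The 2 others were the germ cell cyclins Ccna1 and Ccnb3, with no count in any library. All 10 E2F target genes of S phase were expressed, led by Pcna at 430 ± 12.7 TPM, and all 10 mitotic genes, led by Mki67 at 296 ± 16.6 TPM. In bulk RNA, fewer cells in a phase and less RNA per cell cannot be told apart.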

How the data were processed

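The authors deposited raw gene counts, whole numbers of read pairs per gene, per the file headers: featureCounts 1.4.6-p4 ran on STAR output (mm10, GENCODE M13) with paired counting and the reverse strand setting, and multimapping reads were not counted. Per the labels the assay is total RNA-seq, though a linked protocol names poly(A)+ RNA. Symbols came from GENCODE M21, which matched 50376 of 50600 identifiers. TPM was computed with Python 3.11.15 from the counts and the deposited exon lengths. Variation between libraries was tested with edgeR 4.0.16 in R 4.3.3: filterByExpr (minimum count 10), TMM, an intercept-only fit, trended dispersion, one-sided deviance test, Benjamini-Hochberg adjustment over 13478 genes; the scripts were tested on simulated data. DESeq2 1.42.0 was an alternative. Pairs of genes were compared by exact sign-flip permutation with a pseudocount of 1. A total of 3 counts was the floor, at 0.0316 to 0.0919 CPM. All members are named, and of the other pathway genes the highest of each list, any under 1 TPM in a library and any called. The members and lists were chosen with earlier results of these data known. Promoters are from RefSeq (GRCm38.p6).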

Additional observations from a re-analysis of the deposited data

Results flagged for a closer look

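Of 60 values examined (the TPM of 39 genes and 21 differences between genes), 3 met Dixon's criterion for a library that stands apart, and chance picks out about 1 value in 20. Ccne1 was lowest in replicate 3, at 90.3 TPM against 101 to 102 TPM in the others. The difference Rbl1 minus Rbl2 was lowest in replicate 1, at 0.0527 (log2) against 0.24 to 0.26. The difference Cdkn2a minus Cdkn2b was highest in replicate 3, at 0.23 (log2), where these genes had 12 and 6 counts against 0 or 1 elsewhere.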

How the results depend on the processing

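No paired analysis was possible because the labels give a single group. With a pseudocount of 0.1 and without each replicate in turn, all 21 differences between genes kept their sign. The size of those with a low gene depended on the pseudocount. With 0.1, Ccnd2 minus Ccnd1 was 7.60 ± 0.27 and Ccnd3 minus Ccnd1 was 6.84 ± 0.21 (log2, SD, n = 4). With principal transcript lengths, an alternative chosen after seeing the data, 3 of 21 changed sign: Ccnd2 minus Ccnd3 (-0.72), Cdk1 minus Cdk2 (-0.62) and Rbl1 minus Rbl2 (-0.10). In CPM, without length, 3 did: E2f1 minus E2f3 (-0.081), Rbl1 minus Rbl2 (-0.12) and Cdc25a minus Cdc25b (0.19). Ccnb1 minus Ccnb2 kept its sign in the mean there but shrank to -0.06 ± 0.15. The count of members expressed stayed at 36 under a minimum of 0.5 TPM, a minimum of 1 CPM and without each replicate, and was 35 with principal transcript lengths, under which Ccnd1 averaged 1.19 TPM. The members called stayed at 0 under every alternative run. The genes called over the whole table ranged from 17 to 56 without each replicate, with 17 without replicate 1, 23 without replicate 3 and 33 without replicate 4, and from 38 to 67 under the other alternatives; the cause was not tested. Depth limits Cdkn2a, Cdkn2b and Cdkn1c, whose counts were 0 to 87 per library.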
